A study of Mus musculus with 16 samples.

Results

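The cytosolic chaperonin, also called CCT or TRiC, was followed through its 8 subunit genes Tcp1, Cct2, Cct3, Cct4, Cct5, Cct6a, Cct7 and Cct8, chosen by gene name from the 55385 genes of the count table. All 8 passed the filter on low counts, as did 17132 genes in all. Cct8 lies in the stretch of mouse chromosome 16 that Dp16 mice carry in 3 copies, and the 7 other genes lie on other chromosomes and are present in 2. The question was whether transcripts of the 7 follow Cct8.

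Hippocampal polyadenylated RNA of 9-month-old mice was sequenced in 16 libraries, 4 from each of 4 groups with 2 females and 2 males each. The WT group was labelled as wild-type C57BL/6J. Dp16 mice carry a duplication of the chromosome 16 region that corresponds to most of human chromosome 21. The 5xFAD mice carry human transgenes with mutations of familial Alzheimer disease under neuronal Thy1 promoter sequences, and 5xFAD-Dp16 mice carry both the transgenes and the duplication. The background strain of the 3 mutant groups, litters and batches were not given in the labels, and no treatment was recorded. The labels do not say that each library came from a separate animal. The design text counts 4 mice per group, and p-values measure the spread between these libraries.

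The chaperonin is a barrel of stacked rings in which each subunit has a fixed place. It encloses unfolded proteins and releases them folded as ATP is bound and split. Actin and tubulin depend on it, as do several proteins built of WD40 repeats, and in neurons its activity has been linked to the cytoskeleton and to the handling of aggregation-prone proteins. In the ring, the CCT8 protein sits between CCT6 and CCT7. CCT2, CCT4 and CCT5 are known for tight ATP binding, and CCT3, CCT6 and CCT8 for weak ATP binding.

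The windows of 100 bases before the RefSeq start (GRCm38.p6) are shown for the subunit in 3 copies and for 3 of those in 2, to let the reader compare the promoters of genes whose products form 1 complex. Windows were found for 7 of the 8 genes, all but Cct4. Capitals mark matches on either strand to CCGGAAG, the core bound by ETS factors, to CCAAT, the box bound by NF-Y, and to GGGCGG, the box bound by Sp1.
Cct8, chr16:87495870-87495969, minus strand: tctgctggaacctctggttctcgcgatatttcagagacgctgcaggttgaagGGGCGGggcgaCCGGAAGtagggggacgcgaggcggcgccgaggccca
Cct2, chr10:117063853-117063952, minus strand: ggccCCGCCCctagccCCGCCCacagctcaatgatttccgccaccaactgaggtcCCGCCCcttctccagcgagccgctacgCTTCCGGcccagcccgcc
Cct3, chr3:88297035-88297134, plus strand: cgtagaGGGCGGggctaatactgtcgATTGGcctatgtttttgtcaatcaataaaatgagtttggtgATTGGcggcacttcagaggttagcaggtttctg
Cct6a, chr5:129787256-129787355, plus strand: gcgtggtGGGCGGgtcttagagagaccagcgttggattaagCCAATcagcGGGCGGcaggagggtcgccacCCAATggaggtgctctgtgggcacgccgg

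Among the 7 windows, CCGGAAG stood in those of Cct8 and Cct2, 1 match each, against 4.52% of 32851 mouse promoter windows of the same length. CCAAT stood in those of Cct3, Cct6a and Cct7, against 18.9% of all windows. GGGCGG stood in those of Cct2, Cct3, Cct6a, Cct7 and Cct8, against 24.7%. The heat shock element GAANNTTC stood in none of the 7 windows and in 2.7% of all windows. Tcp1 and Cct5 held none of the motifs searched. These are letter matches in short windows and say nothing of binding.

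Total gene counts were 16922937 to 25308693 per library. The 24 pairs of libraries within groups all differed by more than sampling noise (chi-square per degree of freedom 6.67 to 107). The hippocampal markers Prox1, Wfs1, Neurod6 and Camk2a were present in each library, at least at 65.7, 83.1, 48.8 and 1737 CPM (read counts relative to library size, the size adjusted by TMM factors from trimmed means of log ratios). Markers of the thalamus, a neighbouring tissue, split the libraries: their score (mean log2 CPM, 0 at the WT mean) was 1.18 to 1.84 in 6 libraries (5xFAD 6, 13 and 15, 5xFAD-Dp16 1, Dp16 14 and WT 4) and -0.84 to -0.38 in the other 10. All 12 of 12 thalamus markers were tested and none was at 0, and they summed to 365 to 916 CPM in WT libraries, 339 to 1208 CPM in those of Dp16, 345 to 894 CPM in 5xFAD and 326 to 830 CPM in 5xFAD-Dp16. Markers of the choroid plexus (12 of 12 tested, none at 0) summed to 473 to 8378 CPM in WT and to 54.4 to 992 CPM in Dp16, and with the transgenes to 67.1 to 6310 CPM in 5xFAD and to 77.1 to 3074 CPM in 5xFAD-Dp16.

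Cct8 (ENSMUSG00000025613.13, chr16:87483326-87495873, minus strand, GRCm38) rose in both comparisons that add the duplication. Its level was 159, 158, 146 and 153 CPM in WT libraries 2, 4, 7 and 16, and 239, 247, 250 and 246 CPM in Dp16 libraries 3, 5, 12 and 14. In 5xFAD libraries 6, 10, 13 and 15 it was 158, 154, 144 and 170 CPM, and in 5xFAD-Dp16 libraries 1, 8, 9 and 11 it was 232, 221, 228 and 213 CPM. All 8 libraries with the duplication lay above all 8 without it, and the lowest of the former was 213 and the highest of the latter 170 CPM.

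The Cct8 group means were 154 ± 5.97 CPM (SD, n = 4) in WT and 246 ± 4.48 in Dp16, and with the transgenes 157 ± 10.8 in 5xFAD and 223 ± 8.46 in 5xFAD-Dp16. On the log2 scale Cct8 rose by 0.67 in Dp16 against WT (SE 0.067, 1.60-fold, 95% interval 1.45 to 1.76, adjusted p = 0.000235, edgeR quasi-likelihood test with Benjamini-Hochberg adjustment over all genes tested). In that comparison 0.228% of the 17132 genes tested were called, that is, had an adjusted p below 0.05. In 5xFAD-Dp16 against 5xFAD the rise of Cct8 was 0.51 (SE 0.067, 1.43-fold, interval 1.29 to 1.57, edgeR adjusted p = 0.000976), with 0.304% of all genes called. Both intervals hold 1.5, the ratio of 3 copies to 2. Fitted to the libraries of 5xFAD-Dp16 and 5xFAD alone, the value stayed at 0.51 but the edgeR adjusted p was 0.154.

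With the choroid plexus score, which was lower in Dp16 than in WT (-3.21 ± 1.39 against 0 ± 1.58, SD, n = 4), as a covariate, an alternative added after the data were seen, Cct8 rose by 0.64 in Dp16 against WT (edgeR adjusted p = 0.0115) and by 0.50 in 5xFAD-Dp16 against 5xFAD (edgeR adjusted p = 0.00252). Without the 6 libraries high in thalamus markers the rises were 0.68 and 0.53 (edgeR adjusted p = 0.000133 and 0.0146). The second of these sets 3 libraries of 5xFAD-Dp16 against 1 of 5xFAD, which was assumed to vary like those of the other groups, so that it has no replicate check of its own.

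The duplication's effect on Cct8 was not shown to differ with the transgenes. The interaction was -0.16 (interval -0.36 to 0.04, edgeR adjusted p = 0.721), in a test that called 0% of all genes, or 0 genes in edgeR and 0 in DESeq2, while 6.5% had an unadjusted p below 0.05. Averaged over both backgrounds, Cct8 rose by 0.59 (1.51-fold, interval 1.41 to 1.62, edgeR adjusted p = 3.47e-06), with 0.531% of all genes called. In 5xFAD-Dp16 against WT, where 3.2% of all genes were called, it rose by 0.54 (edgeR adjusted p = 9.31e-05). This comparison shares the WT libraries with that of Dp16 and the 5xFAD-Dp16 libraries with that of 5xFAD.

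**Figure D1:**
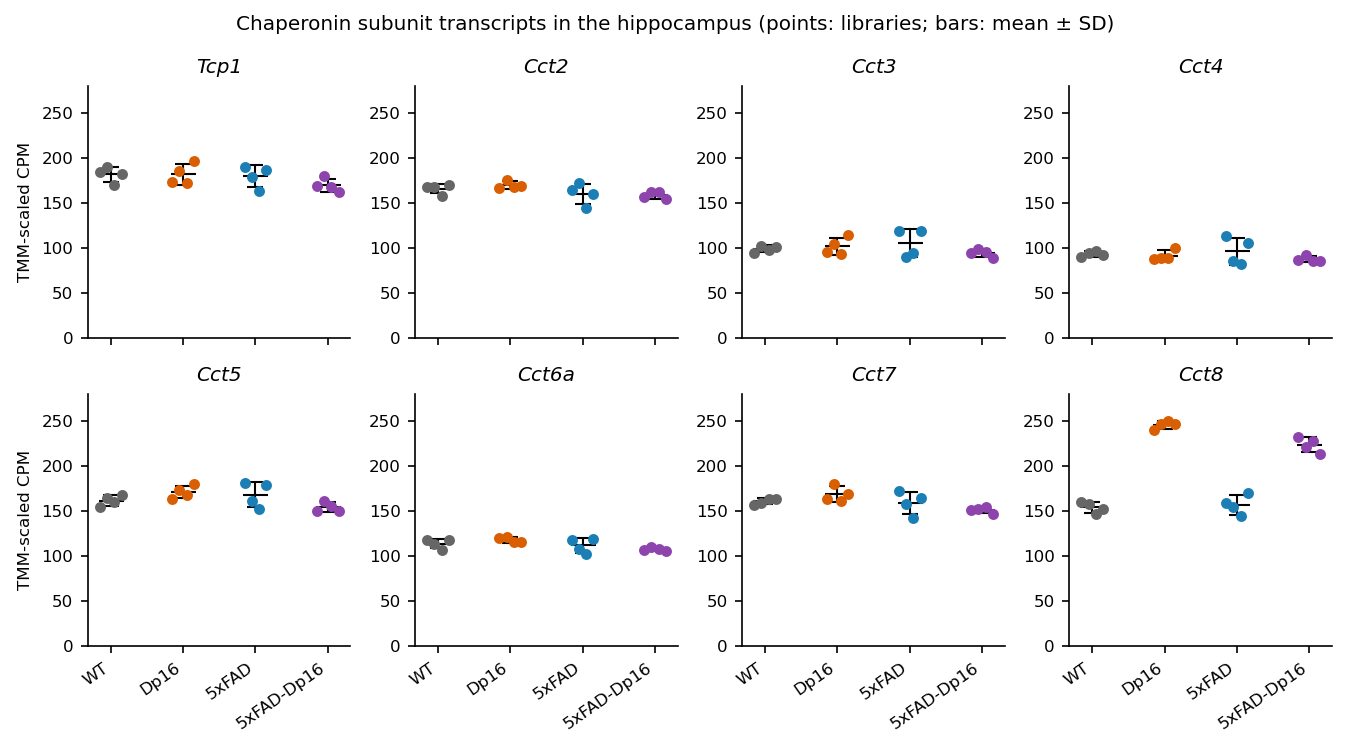
CPM of each of the 8 subunit genes (y axis, from 0) in the 4 groups (x axis). Points are libraries and bars are the mean ± SD of 4 libraries. In the Cct8 panel the libraries with the duplication lie at 213 to 250 CPM and those without it at 144 to 170 CPM, and in the other 7 panels the Dp16 libraries overlap the WT libraries.

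None of the 7 subunit genes in 2 copies was called in Dp16 against WT. Their log2 fold changes ran from -0.03 to 0.08 with a median of 0.04, while the median of all 17132 genes was 0.00155. Of the 7, 5 were above 0, against 50.3% of all genes. DESeq2 also called 0 of the 7, and 0 had an unadjusted p below 0.05 in edgeR. The highest upper bound of the 7 intervals was 1.18-fold, for Cct3, so that each interval ended below 1.5-fold. In simulated counts with known changes for this comparison, 61% of genes raised or lowered by 1.5-fold were recovered. Those genes were drawn from all tested genes above a level limit, each with its own spread. The 7 varied less within groups than the median gene (SD of log2 CPM 0.063 to 0.132 against 0.222), so the 61% does not describe them.

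Cct6a and Cct7 encode the neighbours of CCT8 in the ring. Cct6a (ENSMUSG00000029447.11, chr5:129786998-129846371) stood at 118, 113, 106 and 118 CPM in WT and at 119, 121, 115 and 115 CPM in Dp16. With the transgenes it was 118, 108, 102 and 118 CPM in 5xFAD and 107, 110, 107 and 105 CPM in 5xFAD-Dp16. The groups overlapped in both pairs, and the fold of Dp16 over WT was 1.04 (interval 0.94 to 1.14, edgeR adjusted p = 0.997).

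Cct7 (ENSMUSG00000030007.8, chr6:85451514-85468475) showed 157, 159, 163 and 163 CPM in WT and 163, 180, 161 and 169 CPM in Dp16. It showed 172, 158, 142 and 164 CPM in 5xFAD and 151, 152, 154 and 147 CPM in 5xFAD-Dp16. Dp16 library 5 was the highest of the 16. The fold of Dp16 over WT was 1.05 (interval 0.947 to 1.16, edgeR adjusted p = 0.997), and that of 5xFAD-Dp16 over 5xFAD was 0.95 (interval 0.858 to 1.05, edgeR adjusted p = 0.566).

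Of the subunits with tight ATP binding, Cct2 varied least. Cct2 (ENSMUSG00000034024.8, chr10:117051001-117063814) was at 167, 168, 158 and 170 CPM in WT and 167, 176, 167 and 168 CPM in Dp16, and with the transgenes 164, 172, 145 and 160 CPM in 5xFAD and 156, 162, 162 and 154 CPM in 5xFAD-Dp16. Its fold in 5xFAD-Dp16 against 5xFAD was 0.992 (interval 0.903 to 1.09, edgeR adjusted p = 0.935), the nearest to 1 of the 7. The lowest library was 5xFAD 13.

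Cct4 (ENSMUSG00000007739.10, chr11:22990519-23003780) was at 89.7, 94.2, 96.4 and 92.5 CPM in WT and 87.2, 89.2, 89.2 and 100.1 CPM in Dp16, and with the transgenes 113, 85.8, 81.7 and 105 CPM in 5xFAD and 86.8, 92.0, 85.2 and 86.0 CPM in 5xFAD-Dp16. A mutation of this gene causes a sensory neuropathy in rats. In 5xFAD the libraries fell apart, with 6 and 15 above every library of the other groups and 10 and 13 below every WT library. The fold of Dp16 over WT was 0.98 (interval 0.856 to 1.12, edgeR adjusted p = 0.997).

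Cct5 (ENSMUSG00000022234.15, chr15:31590800-31601804), whose human counterpart is mutated in a hereditary sensory neuropathy, was at 154, 164, 160 and 167 CPM in WT and 164, 173, 168 and 180 CPM in Dp16, and with the transgenes 181, 161, 152 and 179 CPM in 5xFAD and 150, 161, 155 and 149 CPM in 5xFAD-Dp16. Its Dp16 value was the highest of the 7 against WT, 1.06-fold (interval 0.957 to 1.17, edgeR adjusted p = 0.993), with overlapping groups. In 5xFAD-Dp16 against 5xFAD its fold was 0.916 (interval 0.827 to 1.01, edgeR adjusted p = 0.327).

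Tcp1 (ENSMUSG00000068039.13, chr17:12915701-12925067), which encodes the founding subunit CCT1, was at 185, 190, 170 and 182 CPM in WT and 173, 185, 172 and 196 CPM in Dp16, and with the transgenes 191, 179, 164 and 187 CPM in 5xFAD and 169, 180, 167 and 162 CPM in 5xFAD-Dp16. Its fold in Dp16 against WT was 1.00 (interval 0.902 to 1.11, edgeR adjusted p = 0.998). Cct3 (ENSMUSG00000001416.13, chr3:88297116-88321767) was at 94.3, 103, 97.8 and 101 CPM in WT and 95.9, 104, 93.3 and 114 CPM in Dp16, and with the transgenes 119, 90.4, 94.1 and 119 CPM in 5xFAD and 94.2, 99.3, 95.1 and 89.1 CPM in 5xFAD-Dp16. As with Cct4, 5xFAD libraries 6 and 15 stood highest. Cct3 had the lowest of the 7 values in 5xFAD-Dp16 against 5xFAD, 0.893-fold (interval 0.778 to 1.03, edgeR adjusted p = 0.351).

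In 5xFAD-Dp16 against 5xFAD all 7 log2 fold changes were below 0, from -0.16 to -0.01 with a median of -0.09, and none was called. The median of all genes was -0.03, and 45.6% of all genes were above 0. DESeq2 called 0 of the 7, and 0 had an unadjusted p below 0.05 in edgeR. The highest upper bound of the 7 intervals was 1.09-fold. Thalamus markers moved with this comparison, since 3 of the 4 libraries of 5xFAD and 1 of the 4 of 5xFAD-Dp16 were among the 6 high in them. Without these 6, 4 of the 7 values were below 0 and the median was -0.03. In that fit 5xFAD had 1 library, which was assumed to vary like those of the other groups. With the thalamus score as a covariate and all libraries kept, all 7 were below 0 and the median was -0.075. The part of these markers in the values was not tested.

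Averaged over both backgrounds, the most precise estimate, the effect of the duplication on the 7 ran from -0.08 for Cct4 to 0.01 for Cct2 with a median of -0.02, and that of all genes was -0.02. Cct3 was at -0.06, Tcp1 at -0.04, Cct5 at -0.02, Cct6a at -0.0037 and Cct7 at -0.0033. No subunit of the 7 was called, by edgeR or by DESeq2, and 0 had an unadjusted p below 0.05. The widest upper bound was 1.08-fold and the lowest lower bound 0.857-fold, so that changes as large as that of Cct8 lay outside all 7 intervals. Smaller changes within these bounds were not resolved.

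**Figure D2:**
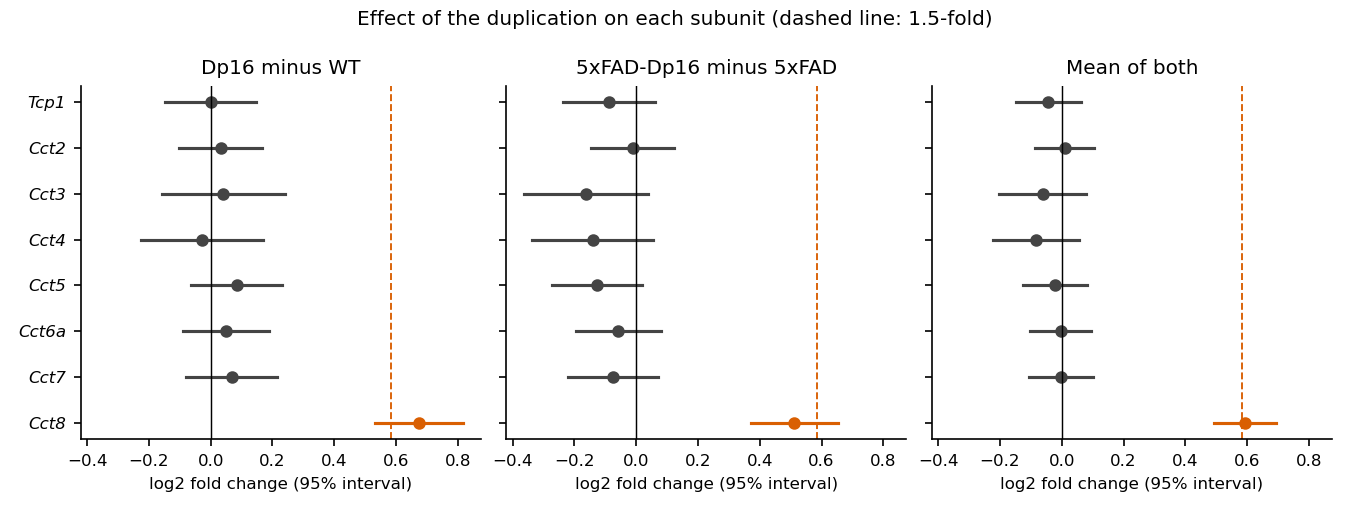
Log2 fold change (x axis) of the 8 subunits (rows) in Dp16 against WT, in 5xFAD-Dp16 against 5xFAD and in the mean of both. Points are estimates from edgeR, lines are 95% intervals, and the dashed line marks 1.5-fold. The intervals of the 7 subunits in 2 copies end left of the dashed line in each panel, and those of Cct8 cross it.

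Cct8 made up a larger share of the subunit transcripts in libraries with the duplication. On RPKM, which also divides by gene length, the share of Cct8 was 12.5 ± 0.391% of the summed level of the 8 genes in WT and 18.1 ± 0.569% in Dp16 (SD, n = 4 each). The share was 12.7 ± 0.47% in 5xFAD and 17.97 ± 0.606% in 5xFAD-Dp16. Groups with and without the duplication did not overlap: the highest share without it was 12.99% and the lowest with it 17.3%. As a log2 ratio to the mean of the other 7 (on log2 CPM), Cct8 stood at 0.19 ± 0.05 in WT and 0.83 ± 0.06 in Dp16, and with the transgenes at 0.20 ± 0.07 in 5xFAD and 0.81 ± 0.06 in 5xFAD-Dp16. These ratios are a description and were not tested.

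The summed RPKM of the other 7 was 446 ± 21.7 in WT and 450 ± 27.0 in Dp16, and with the transgenes 475 ± 62.6 in 5xFAD and 420 ± 8.45 in 5xFAD-Dp16. The wide spread of 5xFAD came from libraries that reached 537 and fell to 413. With Cct8 added, the sum was 510 ± 24.5 in WT and 549 ± 30.1 in Dp16. With the transgenes that sum was lower with the duplication, at 544 ± 70.8 in 5xFAD and 512 ± 9.05 in 5xFAD-Dp16. RPKM takes no TMM factor. In 5xFAD-Dp16 against 5xFAD the median log2 fold change of all genes was -0.10 on log2(RPKM + 0.1), against -0.03 on TMM-scaled counts. The part of scaling in the lower sums was not tested.

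**Figure D3:**
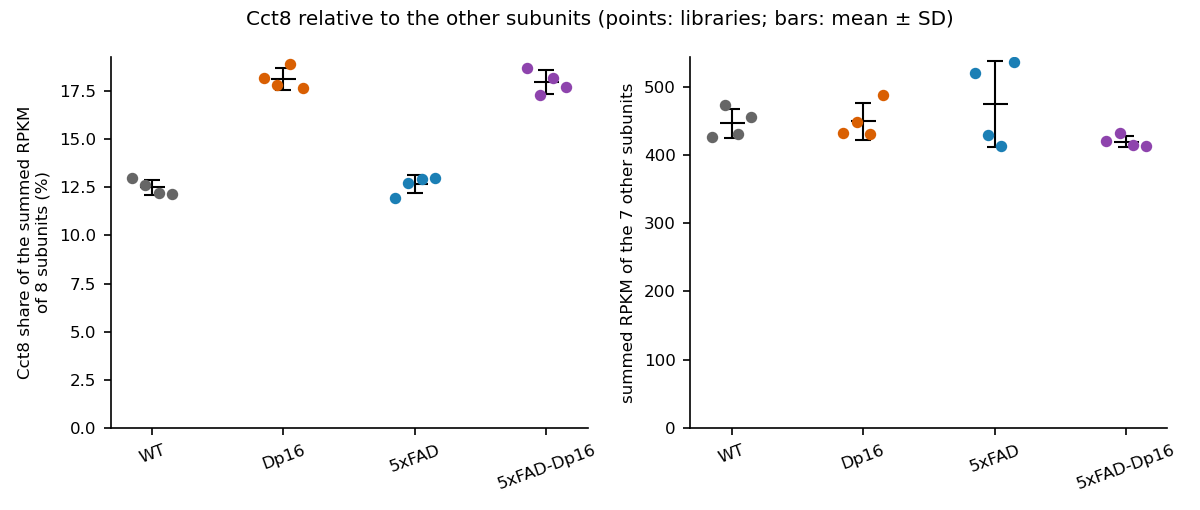
Left, share of Cct8 in the summed RPKM of the 8 subunit genes (y axis, percent, from 0), and right, summed RPKM of the 7 other genes (y axis, from 0), by group (x axis). Points are libraries and bars are the mean ± SD of 4 libraries. The share lies at 11.96% to 12.99% without the duplication and at 17.3% to 18.9% with it, and the 7 others overlap between groups.

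Levels compared per length placed Cct5 highest in WT at 86.6 ± 5.42 RPKM (SD, n = 4). It was followed by Cct2 at 80.3 ± 4.08, Cct6a at 70.5 ± 3.62, Cct7 at 65.3 ± 2.61, Cct8 at 63.8 ± 3.48 and Tcp1 at 63.2 ± 4.33 RPKM. Cct3 at 43.3 ± 2.98 and Cct4 at 37.3 ± 2.04 RPKM were lowest. The ranges of Cct5 and Cct2 overlapped, as did those of Cct6a, Cct7, Cct8 and Tcp1, while all 4 Cct3 libraries lay below all 4 of Tcp1. Cct8 was the fifth of 8 in WT, the fourth in 5xFAD, and the first in Dp16 at 99.5 ± 3.85 RPKM and in 5xFAD-Dp16 at 92.0 ± 3.33 RPKM. The order of the other 7 was the same in all 4 groups.

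The 5xFAD transgenes did not change any subunit past the threshold. In 5xFAD against WT the 8 log2 fold changes ran from -0.05 to 0.09 and 0 were called, against 7.26% of all genes, and Cct8 was at 0.02 (edgeR adjusted p = 0.853). The others were Tcp1 at -0.01, Cct2 at -0.05, Cct3 at 0.09, Cct4 at 0.05, Cct5 at 0.06, Cct6a at -0.03 and Cct7 at -0.02. In 5xFAD-Dp16 against Dp16 all 8 were below 0, from -0.16 for Cct7 to -0.06 for Cct4, against 48.5% of all genes above 0; Tcp1 and Cct2 were at -0.10, Cct3 at -0.11, Cct5 at -0.15 and Cct6a at -0.13. None of the 8 was called (3.02% of all genes were), and 2 had an unadjusted p below 0.05, Cct5 and Cct7, against 11.2% of all genes. The libraries of the groups did not overlap for 4 of the 7, Cct2, Cct5, Cct6a and Cct7, nor for Cct8, and 10% of all genes showed such separation.

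Cct8 stood at -0.14 in that comparison (interval -0.28 to 0.0037, edgeR adjusted p = 0.466). Markers of microglia were higher in the same libraries: the summed level of 12 of 12 markers, none at 0, was 1019 to 1212 CPM in 5xFAD-Dp16 and 373 to 452 CPM in Dp16, and their scores did not overlap. Astrocyte marker scores did not overlap either (8 of 8 markers, none at 0, 0.36 to 0.50 against -0.03 to 0.12), with summed levels of 8417 to 9393 CPM against 6178 to 7110 CPM. Scores of inhibitory neurons were -0.05 ± 0.06 against 0.14 ± 0.09, and those of hippocampal excitatory neurons -0.10 ± 0.17 against 0.08 ± 0.26 (SD, n = 4, in 5xFAD-Dp16 and Dp16), with summed levels of 928 to 1082 against 1093 to 1195 CPM over 8 of 8 markers and of 6854 to 9386 against 6173 to 10602 CPM over 12 of 12, none at 0. The part of these markers in the result was not tested. In bulk tissue, fewer cells of a type and less RNA per cell cannot be told apart. Averaged over both backgrounds, the transgene effect on the 8 ran from -0.09 to -0.01, with 0 called, against 8.6% of all genes. Cct7 was at -0.09, Cct6a and Cct2 at -0.08, Tcp1 and Cct8 at -0.06, Cct5 at -0.05, and Cct3 and Cct4 at -0.01. DESeq2 called 0 of the 8 in each of these 3 comparisons, and 0 had an unadjusted p below 0.05 in the first and the last.

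In 5xFAD-Dp16 against WT, all 7 subunits in 2 copies were below 0, from -0.10 to -0.06 (Tcp1 -0.10, Cct4 and Cct7 -0.09, Cct6a -0.08, Cct3 and Cct5 -0.07, Cct2 -0.06), and 0 were called by edgeR or DESeq2, with 0 at an unadjusted p below 0.05. Only Cct7 among the 7 had groups that did not overlap, against 8.39% of all genes. For the interaction, the 7 ran from -0.21 to -0.04, with 0 called and Cct5 alone at an unadjusted p below 0.05 (-0.21, unadjusted p = 0.0475 in edgeR). Of all genes 0% were called in that test and 6.5% had an unadjusted p below 0.05. Cct3 was at -0.20, Cct7 at -0.14, Cct4 and Cct6a at -0.11, Tcp1 at -0.09 and Cct2 at -0.04. Without the 6 libraries high in thalamus markers, 5 of the 7 were below 0, with a median of -0.04. Cct3 was then at 0.10 and Cct4 at 0.12, in a fit with 1 library of 5xFAD. With the thalamus score as a covariate, all 7 were below 0, with a median of -0.11. Females and males differed by -0.06 to -0.01 over the 8, with 0 called by either tool, 0 at an unadjusted p below 0.05, and 0.0642% of all genes called. Tcp1 and Cct3 were at -0.06, Cct2 and Cct5 at -0.05, Cct6a and Cct8 at -0.03, Cct4 at -0.02 and Cct7 at -0.01.

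Within groups the subunits varied little and often together. The SD of log2 CPM within groups was 0.063 for Cct2, 0.065 for Cct8, 0.068 for Cct6a, 0.072 for Cct7, 0.077 for Cct5 and 0.081 for Tcp1, and 0.126 for Cct4 and 0.132 for Cct3, against a median of 0.222 over all genes tested. These genes are well counted (1455 to 5827 reads per library over the 8), and a median over all genes includes sparse ones. In 5xFAD library 13 all 7 lay below the group mean, by 0.16 on average, and in 5xFAD library 6 all 7 lay above it, by 0.12. In 5xFAD-Dp16 library 8 all 7 lay above, with a mean deviation of 0.054. In 5xFAD-Dp16 libraries 1 and 11 and Dp16 library 12 all 7 lay below, with mean deviations of -0.012, -0.047 and -0.054. Cct8 deviated by -0.017 in 5xFAD-Dp16 library 8, and by 0.057, -0.069 and 0.026 in the last 3 libraries. One scaling factor enters all 8 values of a library.

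**Figure D4:**
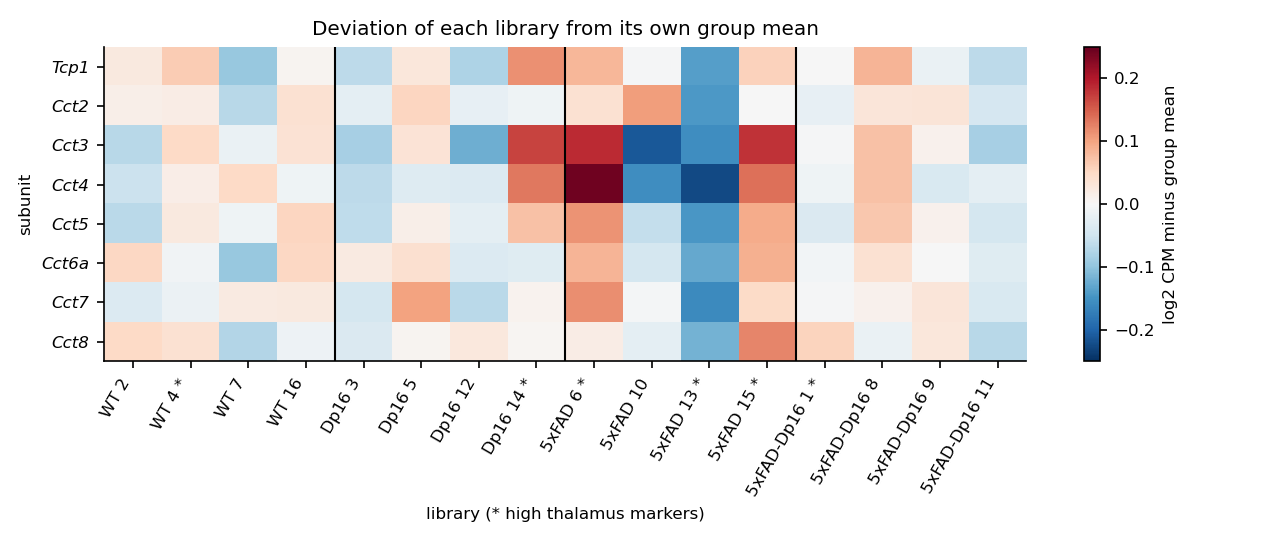
Log2 CPM of each subunit (rows) minus the mean of its group, by library (columns, black lines between groups); red is above and blue below the group mean, and asterisks mark the 6 libraries with high thalamus markers. The columns of 5xFAD are the most coloured, with 5xFAD 13 below its mean in all 8 rows and 5xFAD 6 above it in all 8.

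The triplicated stretch was taken from Lipi to Zbtb21 on chromosome 16 (chr16:75540514-97962622), with 105 genes tested. Their median log2 fold change in Dp16 against WT was 0.56 (quartiles 0.33 and 0.66), and Cct8 at 0.67 lay just above the upper quartile. The median in 5xFAD-Dp16 against 5xFAD was 0.51 (quartiles 0.32 and 0.67), and Cct8 at 0.51 lay at the median. Cct8 ranked 23 by log2 fold change in the first and 52 in the second. By p it ranked 1 in the first and 17 in the second.

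The estimates for its nearest tested genes differed. On one side lie Ltn1, a ubiquitin ligase of stalled ribosomes, Rwdd2b and Usp16, a histone deubiquitinase. Ltn1 rose by 0.61 in Dp16 against WT and by 0.80 in 5xFAD-Dp16 against 5xFAD (edgeR adjusted p = 0.00576 and 0.000427). Rwdd2b rose by 0.93 in the first (edgeR adjusted p = 0.0011) and was at 0.51 in the second (0.0829). Usp16 was at 0.31 and 0.32, not called. On the other side B130034C11Rik was at -0.29 and 0.53, and Map3k7cl at 0.69 and -0.20, with low levels of 1.32 and 0.731 CPM in WT. Bach1, a heme-binding repressor, was at 0.36 and 0.55, and none of these was called. The intervals of Usp16, Map3k7cl and Bach1 held 1.5-fold in both comparisons. That of Ltn1 held it in the first, and those of Rwdd2b and B130034C11Rik in the second. Rwdd2b in the first and Ltn1 in the second lay above 1.5-fold, and B130034C11Rik in the first below it.

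Usp16 is transcribed from the opposite strand and shares 192 exon bases with the 3′ end of Cct8. The strand setting of the counting is not given in the sources used here, so that reads of the shared bases cannot be told apart, and the whole Usp16 count was 9.21% of that of Cct8. Other subunits share exon bases with opposite-strand genes too: Tcp1 with Mrpl18 (141 bases, whole count 15.5% of that of Tcp1) and Acat3 (571 bases, 1.93%), Cct6a with Psph (452 bases, 13.4%) and Cct7 with Pradc1 (214 bases, 4.14%). Of the near copies, Cct6b, the testis form of Cct6a, had 0 to 11 reads per library, Cct8l1 had 0 to 7, and the Cct3 pseudogene Cct3-ps1 had 0 to 2.

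Over the 16 libraries the genes most like Cct8 in log2 CPM, of 10519 with a mean of at least 3, were Ttc3 (Pearson r 0.96, Spearman 0.89), Hspa13 (0.96 and 0.85), Morc3 (0.96 and 0.86), App (0.95 and 0.86) and Gart (0.95 and 0.74). All 5 lie in the triplicated stretch, and the likeness follows the 8 libraries that carry it. Those most like the mean profile of the other 7 were Ran (0.92 and 0.86), Ndfip1 (0.91 and 0.91), Mdh1 (0.89 and 0.86), Vdac2 (0.89 and 0.86) and Pdhb (0.89 and 0.86), none of them in the stretch. Cct8 and the mean profile of the 7 had a Pearson r of 0.04 over the 16 libraries. This r includes the step in Cct8 between libraries with and without the duplication, and r within groups was not computed. The libraries share depth scaling and tissue makeup, and these values are a description. Ranked by Spearman, 0 of the first 5 and 1 of the second 5 were again among the top 5. In the 10 libraries not high in thalamus markers, ranked by Pearson, 2 of the first 5 and 1 of the second 5 were. Pearson r was 0.93 to 0.99 there for the first 5 and 0.76 to 0.93 for the second 5.

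Genes that work with the chaperonin were followed in 8 lists of 63 genes, 61 of them tested. None was called in Dp16 against WT (0 by edgeR or DESeq2, 4 with an unadjusted p below 0.05, against 5.7% of all genes), where the median was 0.06. In 5xFAD-Dp16 against 5xFAD, 0 were called by edgeR, 15 had an unadjusted p below 0.05, against 19.1% of all genes, and the median was 0.00176 and the mean -0.02. DESeq2 called 4 there, Pfdn1, Tbca, Hspa1b and Rptor (named after their values were seen), and edgeR without 5xFAD library 10 called 5, without library 13 called 2 and without Dp16 library 14 called 1.

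Prefoldin, which hands unfolded actin and tubulin to the chaperonin, had 3 of 6 genes above 0 in Dp16 against WT, with a median of -0.00145 and a mean of 0.01. In 5xFAD-Dp16 against 5xFAD all 6 were below 0, with a median of -0.21 and Pfdn1 lowest at -0.42 (edgeR adjusted p = 0.0691). In 5xFAD against WT all 6 were above 0, with a median of 0.20. The last 2 comparisons share the 5xFAD libraries, 3 of 4 of which were high in thalamus markers. Without the 6 libraries high in them, Pfdn1 was at -0.28 in the first of these comparisons and, from 0.29, at 0.18 in the second. Of the phosducin-like cochaperones that regulate the chaperonin, 3 of 4 were tested, with medians of 0.01 and -0.15 in the comparisons that add the duplication, and Txndc9 had the smallest p in the second (-0.15, edgeR adjusted p = 0.409).

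Among the substrates, 12 of 14 tubulins were above 0 in Dp16 against WT with a median of 0.11, and Tubb3, the neuronal beta-tubulin, had the smallest p (0.29, edgeR adjusted p = 0.709). Above 0 in that comparison were 45 of all 61 pathway genes tested and 50.3% of all genes. Of the tubulins, 3 had an unadjusted p below 0.05 in edgeR, against 5.7% of all genes. In 5xFAD-Dp16 against 5xFAD 8 of 14 were above 0, with a median of 0.02 and a mean of -0.00611. The actins Actb and Actg1 had medians of 0.07 and 0.11. The 11 genes of WD40 and other substrates, G protein beta subunits and activators of the anaphase-promoting complex among them, had medians of 0.06 and 0.08 and a mean in the second comparison of -0.03.

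The tubulin cofactors, which join the alpha and beta chains after the chaperonin, had medians of -0.05 and -0.16 over 6 genes, with Tbca at -0.38 in the second (edgeR adjusted p = 0.0693). The 5 tested relatives of the chaperonin, such as the mitochondrial Hspd1 and Hspe1, had medians of 0.02 and -0.11, and the mean of the first was -0.04. Of 14 cytosolic chaperones and heat shock factors, 12 were above 0 in each comparison, with medians of 0.09 and 0.11, and 0 were called by edgeR. Above 0 in the 2 comparisons were 45 and 31 of all 61 pathway genes tested, and 50.3% and 45.6% of all genes.

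**Figure D5:**
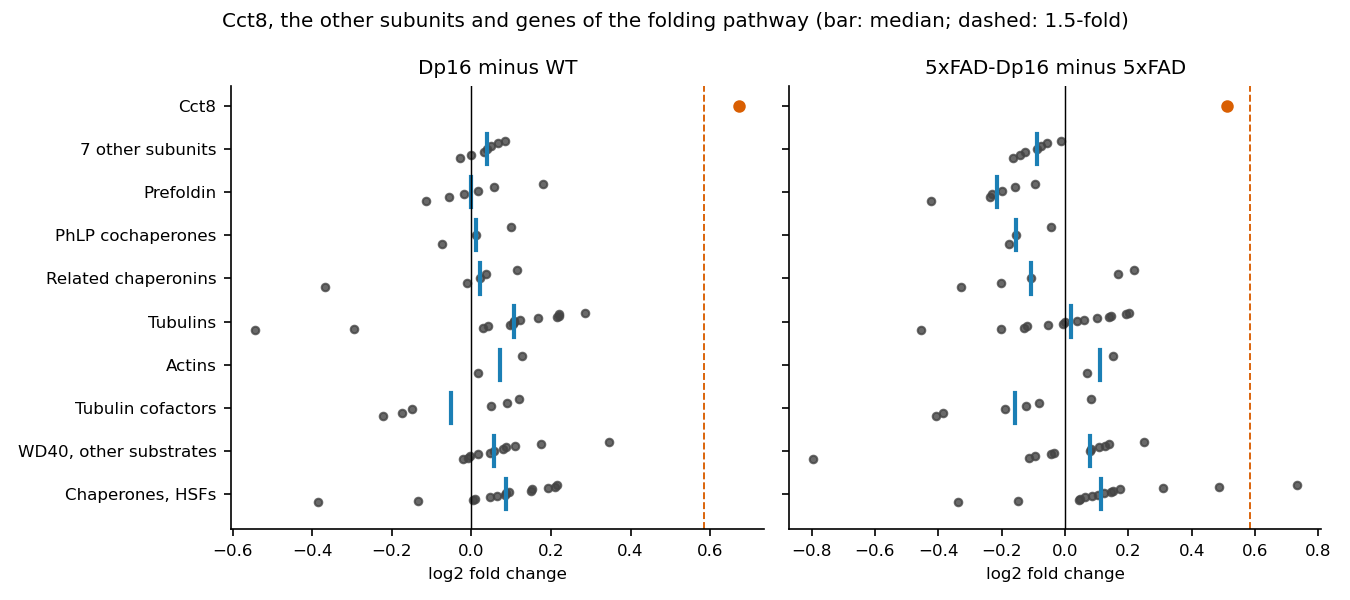
Log2 fold changes (x axis) of Cct8 (orange), of the 7 other subunits and of the tested genes of 8 lists of the folding pathway (rows) in Dp16 against WT and in 5xFAD-Dp16 against 5xFAD. Points are genes, blue bars are medians of a list, and the dashed line marks 1.5-fold. The lists lie around 0 in both panels, with medians from -0.21 to 0.11, and Cct8 stands to their right at 0.67 and 0.51, apart from 1 heat shock gene at 0.73 in the second panel, Hspa1b.

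In 5xFAD against WT edgeR called 2 of the 61 pathway genes and DESeq2 9, and 17 had an unadjusted p below 0.05 in edgeR, against 24.9% of all genes (7.26% called). Tubb6, a beta-tubulin of low level here, rose from 1.63 ± 0.598 to 3.80 ± 1.43 CPM (SD, n = 4; log2 1.19, edgeR adjusted p = 0.0469), and Cdc20, a mitotic activator that the chaperonin folds, rose from 0.410 ± 0.165 to 1.09 ± 0.28 CPM (log2 1.40, edgeR adjusted p = 0.0408). These 2 calls were made under 12 and 15 of 27 alternatives. With the thalamus score as a covariate and all libraries kept, neither was called. Tubb6 was at 1.01 there (edgeR adjusted p = 0.0743) and Cdc20 at 1.24 (0.084). Fitted to the 2 groups alone, they were at 1.20 and 1.43 (edgeR adjusted p = 0.0914 and 0.102). The number of pathway genes called went to 0 without WT library 2 or 7 or 5xFAD library 6 or 15, to 1 without WT 4 or 16, Dp16 3 or 12, or 5xFAD-Dp16 1, 8 or 11, to 4 without 5xFAD 13 and to 11 without 5xFAD 10. Without the 6 libraries high in thalamus markers, in a fit with 1 library of 5xFAD, it was also 0: Tubb6 was at 1.17 there (edgeR adjusted p = 0.467) and Cdc20 at 0.98 (0.665).

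Averaged over both backgrounds, edgeR called 3 of the 61 and DESeq2 10, and 14 had an unadjusted p below 0.05 in edgeR, against 25.2% of all genes (8.6% called). Tubb6 rose by 1.23 (edgeR adjusted p = 0.00401) and the prefoldin gene Pfdn5 by 0.21 (edgeR adjusted p = 0.0499), and Gnb5, a G protein beta subunit of neurons, fell by 0.23 (edgeR adjusted p = 0.0148). Tubb6 was called under 25 of 26 alternatives, Gnb5 under 23 and Pfdn5 under 11. The number called was 12 without 5xFAD library 10, 6 without Dp16 library 14 and 0 without the 6 libraries high in thalamus markers. In the last fit Tubb6 was at 1.28 (edgeR adjusted p = 0.0777), Pfdn5 at 0.19 (0.247) and Gnb5 at -0.13 (0.399). In 5xFAD-Dp16 against Dp16 and against WT, the interaction and the sexes, edgeR called 0 of the 61, with 7, 1, 4 and 1 at an unadjusted p below 0.05 (11.2%, 9.6%, 6.5% and 5.72% of all genes), and in the mean effect of Dp16 it called 0, with 14 (16.9% of all genes). DESeq2 called 1 in the first of these (5xFAD-Dp16 against Dp16) and 5 in the last.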

How the data were processed

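Gene counts and RPKM values of the 16 libraries were deposited by the authors as whole-series tables. Libraries were made with a strand-specific kit from polyadenylated RNA, per the labels' protocols. Reads were handled with HISAT2 2.1.0 and HTSeq 0.6.1 on GRCm38, besides SAMtools 1.5, FastQC 0.11.5 and bcl2fastq, per the submitters' processing notes, which give no roles. The strand setting and the handling of multiply mapped reads are not given in the sources used here. The deposited RPKM equalled the count divided by the column total and by 1 length per gene, within a relative deviation of 8.88e-16 over 14312 genes.

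Counts were fitted with edgeR 4.0.16 in R 4.3.3 (filterByExpr, minimum count 10, TMM factors 0.944 to 1.13, robust quasi-likelihood, group and sex as terms, all 16 libraries). Genes were called at an adjusted p below 0.05 (Benjamini-Hochberg over 17132 genes). Intervals are 95% and cover the spread between libraries. CPM values are scaled by TMM, and log2 CPM uses a prior count of 2. DESeq2 1.42.0 and limma 3.58.1 (on log2 of RPKM + 0.1 or + 1) were alternatives, with other scaling, no filter, no sex term, 2 groups alone, leaving out each library, and marker scores. On simulated data for Dp16 against WT, 61% of 1.5-fold and 90% of 2-fold changes were recovered and 2 of the unchanged genes were called. Gene positions are from GENCODE M21 and promoter windows from RefSeq.

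The members and lists were chosen with earlier results of these data known. The text names all 8 members in every comparison, list genes called in a comparison (up to 3 per list outside the Dp16 comparisons) or chosen among those of smallest p, the 3 nearest tested genes on each side of Cct8, and the 5 genes most like Cct8 and most like the others.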

Additional observations from a re-analysis of the deposited data

Results flagged for a closer look

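Within groups of 4 libraries, 36 sets of values (8 genes and 1 ratio in 4 groups) were searched for a library whose gap to the nearest other exceeded Dixon's critical value, which chance passes in about 1 of 20. There were 2. Cct4 was at 100.1 CPM in Dp16 library 14, against 87.2 to 89.2 CPM in the other Dp16 libraries (gap over range 0.846). The log2 ratio of Cct8 to the mean of the other 7 was 0.10 in 5xFAD library 6, against 0.23 to 0.24 in the other 5xFAD libraries (gap over range 0.939). Both libraries are among the 6 with high thalamus marker scores, whose part in these values was not tested.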

How the results depend on the processing

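Cct8 was called in 27 of 27 alternatives in Dp16 against WT (log2 fold change 0.63 to 0.70) and in 5xFAD-Dp16 against WT (0.51 to 0.56), and in 26 of 27 in 5xFAD-Dp16 against 5xFAD (0.42 to 0.56). The exception was the fit to these 2 groups alone, with 0.51 and an edgeR adjusted p of 0.154; the cause was not tested. No alternative called any of the 7 other subunits in any comparison. Over the alternatives fitted with edgeR, for which intervals were computed (not for DESeq2 or limma), the highest upper bound of the 7 was 1.26-fold in Dp16 against WT (24 fits), 1.24-fold in 5xFAD-Dp16 against 5xFAD (24 fits) and 1.13-fold in the mean of both (23 fits). The median of the 7 in 5xFAD-Dp16 against 5xFAD moved to -0.17 with limma on log2(RPKM + 0.1) and to -0.17 on log2(RPKM + 1), where the median of all genes moved to -0.10, and to -0.029 without the 6 libraries high in thalamus markers; the cause was not tested. Values of the 8 genes that were not called in the main edgeR fit changed sign under alternatives 93 times. None of these was called, and none was above 0.153 in size. The number of the 7 below 0 ranged over all fits from 0 to 6 in 5xFAD against WT. It ranged from 4 to 7 in 5xFAD-Dp16 against 5xFAD and from 5 to 7 for the interaction. In each fit of 5xFAD-Dp16 against Dp16 and against WT it was 7. DESeq2 called more genes over the whole table: 74 against 39 by edgeR in Dp16 against WT, 720 against 52 in 5xFAD-Dp16 against 5xFAD, 489 against 91 in the mean effect of Dp16, 2124 against 1244 in 5xFAD against WT, 2367 against 1473 in the mean effect of 5xFAD and 30 against 11 between the sexes. Of the 61 pathway genes it called 9 against 2 in 5xFAD against WT and 10 against 3 in the mean effect of 5xFAD, and edgeR without the low-count filter called 7 and 5 in these and 5 in 5xFAD-Dp16 against 5xFAD. No paired analysis was possible because the title numbers are unique to each library. Each subunit had at least 1455 reads in every library, and 4 libraries per group limit the precision.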
